A study of Mus musculus with 9 samples.

Results

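The cytosolic ribosomal protein genes were followed in B16 tumour tissue, a transplantable mouse melanoma, from C57/Bl6 mice aged 8 weeks. The tissue was taken 14 days after inoculation. The 5 samples of the PBS group came from mice given PBS, and the 4 samples of the PC61 group came from mice given PC61, a CD25 antibody by which regulatory T cells are removed and which can bind other CD25-bearing cells, such as activated T cells. No source used here gives the dose or day of treatment, or says that each sample is a separate mouse, so the tests below rest on a spread between arrays that may be partly technical. All protein-coding genes whose array annotation reads Rpl or Rps and a digit were taken, with Rplp0, Rplp1, Rplp2 and Rpsa, and without Rps6k genes and pseudogenes. In all, 56 genes with 77 detected probes were found, of 10096 genes tested. Of 89 protein-coding genes that RefSeq names in this way, 33 were not named among the probes and were not analysed here, among them Rpsa, Rpl5 and Rpl11.

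Ribosomal proteins coat and stabilise the rRNA of the small and the large subunit, and a ribosome needs most of them in equal number. Their mRNAs are among the most abundant in growing cells and belong to the TOP class, which begins with a C and a run of pyrimidines and whose translation follows growth signals through mTOR and Larp1. A few paralogs with a narrow tissue pattern exist beside the common genes, such as Rpl3l of skeletal and heart muscle, which stands in for Rpl3. Of the 56 genes, 30 encode common proteins of the large subunit and 20 of the small subunit, and 6 are paralogs or related genes by name (Rpl3l, Rpl7l1, Rpl22l1, Rpl36al, Rps27l and Rps19bp1). By its name alone the rule also takes in Rps19bp1, which encodes a binding partner of Rps19 and of Sirt1 and is no part of the ribosome.

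Start sites are shown for 4 common genes, with the pyrimidine run that gives the TOP class its name, and for Rpl3l because its signal moved apart from theirs. The 4 are examples with a run and do not stand for all common genes. In Rpl35, Rps6 and Rplp2 a C and 4 pyrimidines begin at the start base, as in 8 of 50 common-gene windows. Others, such as Rpl24 and Rpl27, have no such match within 20 bases. Windows are from RefSeq, build GRCm38.p6, and run from 60 bases before the annotated start to its first 20 bases. Capitals mark the longest pyrimidine run whose opening C lies within 20 bases of the start, and for Rpl3l the letters CAGCTG, an E-box core that muscle regulators can bind. The Rpl3l window also holds a C followed by 4 pyrimidines within 20 bases of the start, which is left in lower case.
Rpl35, chr2:39005112-39005191, minus strand: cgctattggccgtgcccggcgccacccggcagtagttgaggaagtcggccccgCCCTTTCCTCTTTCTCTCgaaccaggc
Rps6, chr4:86857348-86857427, minus strand: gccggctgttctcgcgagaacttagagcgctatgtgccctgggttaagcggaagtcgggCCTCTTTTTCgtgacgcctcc
Rplp2, chr7:141447591-141447670, plus strand: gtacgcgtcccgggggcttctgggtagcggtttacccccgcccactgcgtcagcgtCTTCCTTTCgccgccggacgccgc
Rpl7a, chr2:26910747-26910826, plus strand: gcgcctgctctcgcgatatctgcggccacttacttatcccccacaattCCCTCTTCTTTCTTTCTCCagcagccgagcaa
Rpl3l, chr17:24727766-24727845, plus strand: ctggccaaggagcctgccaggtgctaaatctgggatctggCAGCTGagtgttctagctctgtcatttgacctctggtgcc

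Windows of 300 bases were found for 48 of the 56 genes, 58 windows in all, since some genes have more than 1 annotated start. A C followed by 4 pyrimidines on the transcript strand, beginning at the annotated start base itself, was present in 8 of 50 windows of the common genes and in 2.5% of all 32851 windows. Within 20 bases either side of the start it was present in 76.0% of the former and 49.4% of all. The letters CCGGAAG, the core bound by ETS factors such as GABP, stood on either strand in 20 of the common genes' 50 windows and in 8.9% of all. TATAAA stood in 5 of 50 and in 13.6% of all. CAGCTG stood in 1 of 50 windows of the common genes, that of Rpl35, against 16.3% of all windows, and in 1 of the annotated windows of Rpl3l. A match only describes letters near an annotated start, and that start may lie some bases from the one used in this tissue.

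Each array detected between 18572 and 20742 probes at a detection p under 0.05. PC61 replicate 4 stood apart. Over 16 melanocyte genes its mean log2 signal relative to PBS was -3.70, and PC61 replicates 1 to 3 had -0.79, -0.17 and -1.26. In bulk tissue, fewer cells of a type and less RNA per cell cannot be told apart. Groups were compared with limma on quantile-normalized log2 signal over all 10096 genes, and a gene was called at a Benjamini-Hochberg adjusted p under 0.05.

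The common ribosomal protein genes had small differences between the groups, Rpl3l was higher and Rpl7a lower in PC61, and the other members were not called. Of the 56 genes, 2 were called (3.57%), where 26.5% of all genes tested were called. In the higher direction 1 member was called against 15.4% of all genes, and in the lower direction 1 member against 11.2%. At an unadjusted p under 0.05 there were 5 members, against 41.7% of all genes. Without PC61 replicate 3 the called shares were 1.79% of members and 7.46% of all genes, and without PC61 replicate 2 they were 7.14% and 37.2%. Without PBS replicate 2, 4 or 5 or PC61 replicate 1, between 13.3% and 17.2% of all genes were called, beside 1 or 2 members. The median log2 difference, PC61 minus PBS, was -0.04 over the 56 genes and -0.05 over all genes. The middle of the members lay between -0.15 and 0.10 (quartiles), and that of all genes between -0.43 and 0.43. Cyclic loess in place of quantile normalization moved the median of all genes from -0.05 to 0.06 and that of the members to 0.17. Scaling to the 75th percentile moved both the other way, to -0.10 and -0.18. Cyclic loess split the calls over all genes into 1831 higher and 858 lower, against 1552 and 1127. An absolute difference over 0.5 was found in 4 of the 56 genes (7.14%) and in 44.2% of all genes.

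**Figure D1:**
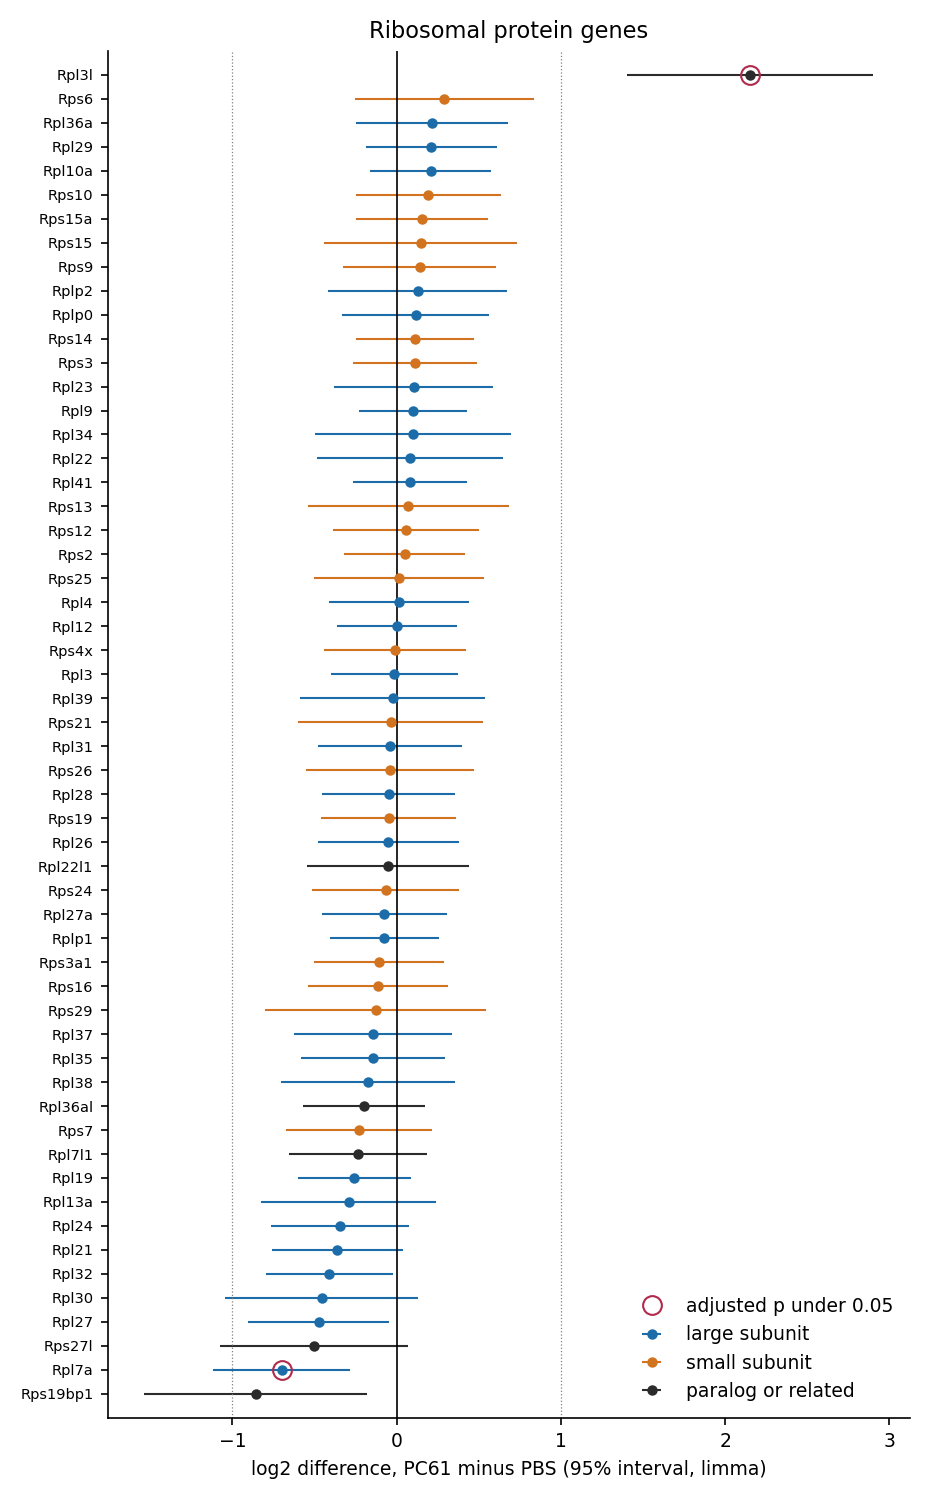
Log2 difference between the PC61 and PBS groups (x axis) for each of the 56 genes (y axis, in order of the difference), with 95% intervals from limma as bars and dotted lines at a 2-fold change. Rpl3l alone lies beyond 2-fold, at 2.15, and Rpl7a at -0.70 is the other gene called.

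The intervals reflect the spread between arrays for 1 probe per gene and 1 normalization. They do not cover differences between probes of a gene or between normalizations. The 95% interval of the difference had a median half-width of 0.44 over the members and lay wholly within a 2-fold change in either direction for 51 of the 56 genes. It lay within a 1.5-fold change for 28 genes. Of the 54 genes not called, Rps19bp1 had the lowest lower bound (-1.54) and Rps6, the substrate of S6 kinase, the highest upper bound (0.84). The spread within groups was small. Its median was 0.26 (SD, log2) over the members and 0.36 over all genes.

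Most of these probes were bright, with 42 of the 56 genes at a mean log2 signal of 12 or more. Of the 310 other genes in that range, 77 were called (24.8%), and their median difference was -0.26. Of the 42 members in that range, 1 was called (2.38%). The brightest member, Rplp1, ranked between 1 and 21 among all probes of an array, where quantile normalization sets the value by rank. Its raw intensity ran from 32648 to 38470 on the PBS arrays and was 35201, 32838, 34920 and 19965 on PC61 replicates 1 to 4. The highest raw intensity of any probe was 39050, and no source used here says where the scanner's limit lay.

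**Figure D2:**
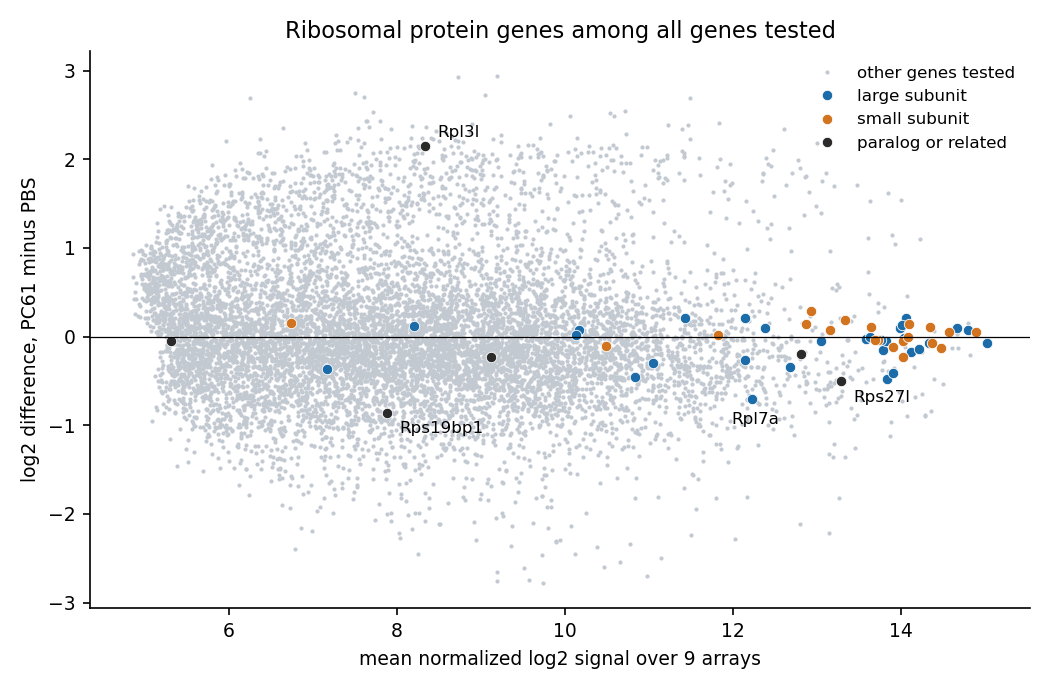
Log2 difference between the PC61 and PBS groups (y axis) against the mean normalized log2 signal over 9 arrays (x axis) for all 10096 genes tested (grey) and the 56 ribosomal protein genes (coloured by subunit, paralogs in black). Most common genes lie near 0 at high signal. Some are dimmer, such as Rps15a at 6.74, Rpl21 at 7.16 and Rplp0 at 8.20. Rpl7a lies lower, at -0.70, and Rpl3l lies apart at 2.15.

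On the scale of the raw table, the 50 common genes' probes summed to between 3.71% and 5.15% of all signal on the PBS arrays and between 3.79% and 5.05% on the PC61 arrays. The groups overlapped over nearly the whole range. PC61 replicate 4 had 3.79%, and PBS replicate 5 had the lowest share. After normalization the mean of the 50 genes relative to the PBS mean was highest on PBS replicate 1 (0.18) and lowest on PC61 replicate 4 (-0.22).

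The gene that moved most was Rpl3l, which encodes the muscle form of the large-subunit protein Rpl3. Its normalized log2 signal was 7.81, 7.10, 7.70, 6.93 and 7.34 on PBS replicates 1 to 5. It was 9.05, 8.70, 10.04 and 10.33 on PC61 replicates 1 to 4. All PC61 arrays lay above all PBS arrays, and the probe was detected on all 9 arrays. Rpl3l rose 4.45-fold (2.15 ± 0.34, SE, log2, limma adjusted p = 0.0122), and by 1.89 without PC61 replicate 4 (adjusted p = 0.0174). The authors' deposited table gave it a ratio of 4.70 and a Benjamini-Hochberg value of 0.0138.

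Rpl3 itself, whose protein lies near the peptidyl transferase centre, was at 14.12, 13.88, 13.88, 14.16 and 14.19 on PBS replicates 1 to 5 and at 14.00, 13.86, 13.90 and 14.37 on PC61 replicates 1 to 4, with overlapping groups. Its difference was -0.01, with a 95% interval from -0.40 to 0.37. The within-array value of Rpl3l minus Rpl3 differed between groups by 2.17 (exact two-sided permutation test, p = 0.00794, the smallest p that 5 against 4 arrays allow, and 0.0238 adjusted over 3 paralog pairs).

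**Figure D3:**
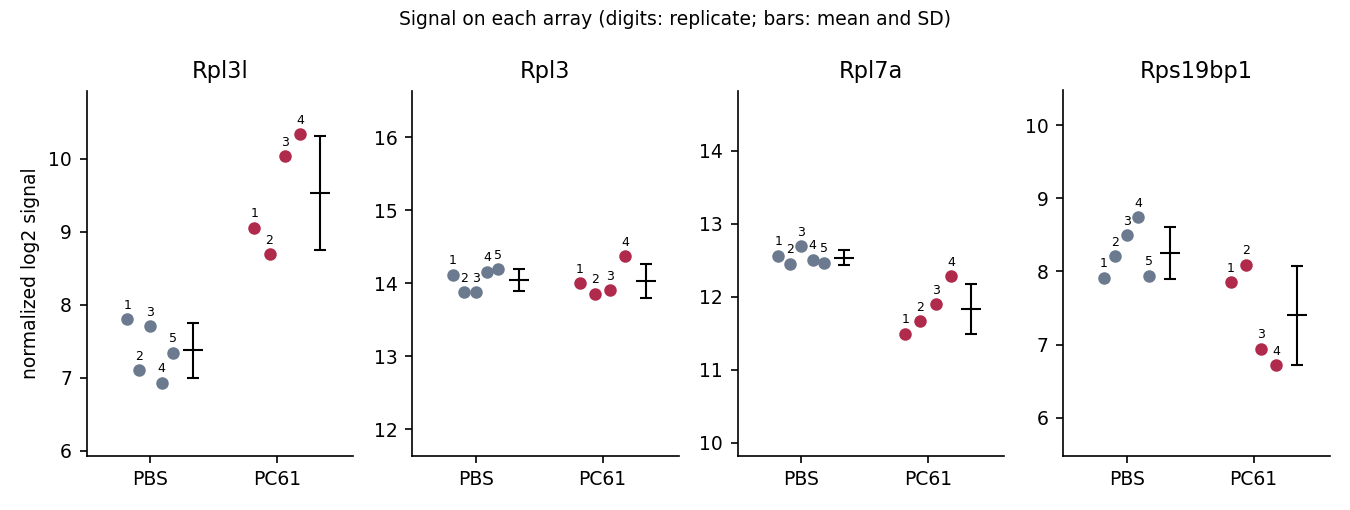
Normalized log2 signal (y axis, the same span in each panel) of Rpl3l, Rpl3, Rpl7a and Rps19bp1 on each array of the PBS and PC61 groups, with replicate numbers beside the points and bars for mean and SD. Rpl3l is higher on all 4 PC61 arrays, Rpl7a is lower on all 4, and the groups overlap for Rpl3 and Rps19bp1.

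Skeletal muscle genes moved with Rpl3l. Of 17 listed genes 15 were measured and all 15 rose, where 15.4% of all genes were called higher. Their median was 2.09, and 14 of them were detected on all 9 arrays. Casq1, a calsequestrin of muscle, was detected on 1 of 5 PBS arrays and on 3 of 4 PC61 arrays. The mean of the list relative to the PBS mean ran from -0.76 to 0.40 on the PBS arrays. It was 1.68, 1.11, 2.36 and 2.81 on PC61 replicates 1 to 4, and Rpl3l had the same order over these 4 arrays. The mean of the keratinocyte list had that order too, at 1.76, 0.83, 1.82 and 2.69. Ckm, muscle creatine kinase, rose by 2.49, Pvalb, the calcium buffer parvalbumin, by 2.09 and Actn3, an actinin of fast fibres, by 2.12. The part of muscle or skin tissue in the change of Rpl3l was not tested.

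A second muscle form of a translation protein stood out in the list of elongation factors. Eef1a2, the form of elongation factor 1 alpha found in muscle and neurons, rose by 2.05 ± 0.38 (SE, limma adjusted p = 0.0122) and was the 1 called of 8 genes measured. That is 12.5% of the list, beside 26.5% of all genes called. The list's median was -0.16. Eef2, the translocation factor, was at -0.75 ± 0.47 (adjusted p = 0.246) and Eef1e1, a tRNA synthetase complex protein, at -0.37 ± 0.20 (adjusted p = 0.186).

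Rps4l, a relative of Rps4x that RefSeq lists as a transcribed pseudogene and that is therefore no member, was higher by 1.55 ± 0.36 (SE, limma adjusted p = 0.0160). Unlike for Rpl3l, its groups overlapped. The RefSeq table holds 309 pseudogenes with ribosomal protein names. Probe sequences were not used here, so signal from such copies cannot be told apart from that of the named genes. This uncertainty holds for every common gene in this text.

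The other paralogs were not called in the main fit. With array weights, where 44.5% of all genes were called, Rps27l and Rpl7l1 were called. Rps27l, a p53 target related to Rps27, was at 13.55, 13.59, 13.53, 13.56 and 13.29 on PBS replicates 1 to 5. On PC61 replicates 1 to 4 it was at 12.90, 13.68, 13.21 and 12.22. The groups overlapped through PC61 replicate 2, and the difference was -0.50 ± 0.26 (SE, limma adjusted p = 0.166). Without that array it was -0.73 (adjusted p = 0.0323).

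Rps19bp1 was at 7.91, 8.21, 8.49, 8.74 and 7.94 on PBS replicates 1 to 5, and at 7.86, 8.10, 6.94 and 6.72 on PC61 replicates 1 to 4. PC61 replicates 1, 3 and 4 were below all PBS arrays and replicate 2 was within the PBS range. Rps19bp1 was not called (-0.86 ± 0.31, SE, limma adjusted p = 0.0601), and the difference was -1.09 (adjusted p = 0.0168) without PC61 replicate 2.

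Rpl7l1, a relative of Rpl7, was at -0.23 ± 0.19 (SE), and its second probe at -0.09. Rpl36al, a retrogene relative of Rpl36a, was at -0.20 ± 0.17 (0.01 with cyclic loess) and Rpl36a at 0.22 ± 0.21. The within-array value of Rpl36al minus Rpl36a differed between groups by -0.41 (exact permutation test, p = 0.0476, adjusted p = 0.0714 over the 3 pairs, not past the threshold). It was -0.50 without PBS replicate 3, where the adjusted p of the exact test was 0.0429. Rpl22l1, a relative of Rpl22, the latter needed for T cell development, had the dimmest probe of the family, detected on 4 of 5 PBS and 4 of 4 PC61 arrays. Its difference from Rpl22 changed between groups by -0.14 (exact permutation test, p = 0.770, adjusted over 3 pairs 0.770), and by 0.24 without PC61 replicate 4.

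In the large subunit 1 of 30 common genes was called (3.33%, beside 26.5% of all genes), and it fell. Rpl7a, a core protein of the subunit, was at 12.56, 12.45, 12.70, 12.51 and 12.47 on PBS replicates 1 to 5 and at 11.49, 11.67, 11.90 and 12.29 on PC61 replicates 1 to 4. All PC61 values lay below all PBS values. Rpl7a fell by 0.70 on the log2 scale (SE 0.19, limma adjusted p = 0.0243), 1.63-fold lower in PC61. The call was lost without PBS replicate 5 (adjusted p = 0.0510), PC61 replicate 1 (0.0652) or PC61 replicate 3 (0.0599), and with cyclic loess (-0.57, adjusted p = 0.0651). Without PC61 replicate 4 the difference was -0.85 (adjusted p = 0.0182).

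The groups did not overlap in 6 of the 56 genes (10.7%), where 21.2% of all genes did not. Beside Rpl3l these were Rpl7a and 4 further large-subunit genes, all lower in PC61. The 4 were not called in the main fit. With array weights Rpl27 was called, where 44.5% of all genes were. Lower without overlap were 5 of the 56 members, a share close to the 9.96% of all genes. Rpl27 was at 14.37, 14.11, 14.06, 13.84 and 13.85 on the PBS arrays and at 13.36, 13.84, 13.79 and 13.29 on the PC61 arrays, a difference of -0.48 ± 0.19 (SE, limma adjusted p = 0.0887). Its groups touch at the second decimal. Rpl32 was at 14.19, 13.97, 14.09, 14.16 and 14.02 and at 13.76, 13.96, 13.69 and 13.30, a difference of -0.41 ± 0.18 (SE, limma adjusted p = 0.103). Rpl21 was at -0.36 and Rpl19, which reaches across to the small subunit, at -0.26. Their groups nearly touch as do those of Rpl32. The lowest PBS and highest PC61 values were 7.02 and 7.01 for Rpl21, and 12.14 and 12.13 for Rpl19. The other low values of the subunit overlapped between groups. Rpl24, which also bridges the subunits, was at -0.35 ± 0.19, Rpl30 at -0.46 ± 0.27 and Rpl13a, known in human monocytes for silencing inflammatory mRNAs outside the ribosome, at -0.29 ± 0.24. Of 16 measured melanocyte genes 4 fell and 2 rose (median -1.83, list mean -0.29 to 0.26 on PBS and -3.70 to -0.17 on PC61 arrays). Of 13 proliferation genes 8 fell (median -0.85, list mean -0.05 to 0.08 and -1.46 to -0.32). Of all genes, 11.2% were called lower and 15.4% higher. The part of melanocyte and proliferation genes in the large-subunit values was not tested. Of the 16 melanocyte genes 13 were detected on all 9 arrays, and Tyr, Mc1r and Slc45a2 were detected on 3 of 4 PC61 arrays.

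On the other side of 0 were Rpl10a, a protein of the mobile L1 stalk, at 0.21 ± 0.17 (SE), Rpl29 at 0.21 ± 0.18 and Rpl9 at 0.10 ± 0.15. Rpl10a was called as higher with cyclic loess (0.47, adjusted p = 0.0472). Rpl9 had the smallest spread within groups (SD 0.08), and its sign turned under scaling to the 75th percentile (-0.06).

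The stalk proteins, which recruit elongation factors to the ribosome, had differences close to 0. Rplp0, the base of the stalk, was at 0.12 ± 0.20 (SE), Rplp1 at -0.08 ± 0.15, Rplp2 at 0.13 ± 0.25 and Rpl12, their neighbour, at 0.00 ± 0.17. The Rplp0 probe was far dimmer, at a mean log2 signal of 8.20, against 15.02 for Rplp1, 14.00 for Rplp2 and 13.63 for Rpl12. Rplp1 turned positive with cyclic loess (0.16) and Rplp2 negative under 75th percentile scaling (-0.05). Rplp2 was at 13.33 on PC61 replicate 4 and between 13.70 and 14.45 on the other arrays. Of 8 listed proteins around the exit tunnel 6 were measured (Rpl4, Rpl19, Rpl26, Rpl31, Rpl35 and Rpl39). Of these 0 were called, beside 26.5% of all genes, and the median was -0.04.

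In the small subunit 0 of 20 common genes were called in limma, where 26.5% of all genes were. At an unadjusted p under 0.05 there were 0 of the 20, against 41.7% of all genes. Their differences ran from -0.23 to 0.29 with a median of 0.03. Of 9 listed proteins along the path of the mRNA 6 were measured, with a median of 0.08 and values from Rps3a1 at -0.11 to Rps15 at 0.15. Rps6 was at 12.98, 13.26, 12.82, 12.55 and 12.37 on PBS replicates 1 to 5, and at 12.95, 12.78, 12.90 and 13.72 on PC61 replicates 1 to 4. Its highest value was on PC61 replicate 4 and the other PC61 values lay within the PBS range. Rps6 differed by 0.29 ± 0.25 (SE, limma adjusted p = 0.401). Rps10 was at 0.19 ± 0.20, Rps15a at 0.15 ± 0.18 and Rps7 at -0.23 ± 0.20, which turned to 0.07 with cyclic loess. The Rps15a probe was dim, at a mean log2 signal of 6.74. With array weights Rps10 was among 7 members called, where 44.5% of all genes were.

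Between the subunits a small offset followed the groups. The mean of the 30 large-subunit genes minus that of the 20 small-subunit genes, relative to PBS, was -0.04, -0.02, -0.01, 0.04 and 0.04 on PBS replicates 1 to 5. On PC61 replicates 1 to 4 it was -0.20, -0.09, -0.07 and -0.12. The groups did not overlap, and the mean difference was -0.12. With medians in place of means the PBS values ran from -0.07 to 0.09 and the PC61 values from -0.18 to -0.07. This offset was noticed after the values were seen and carries no test. The members share arrays and a normalization, and single members have standard errors near 0.20.

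**Figure D4:**
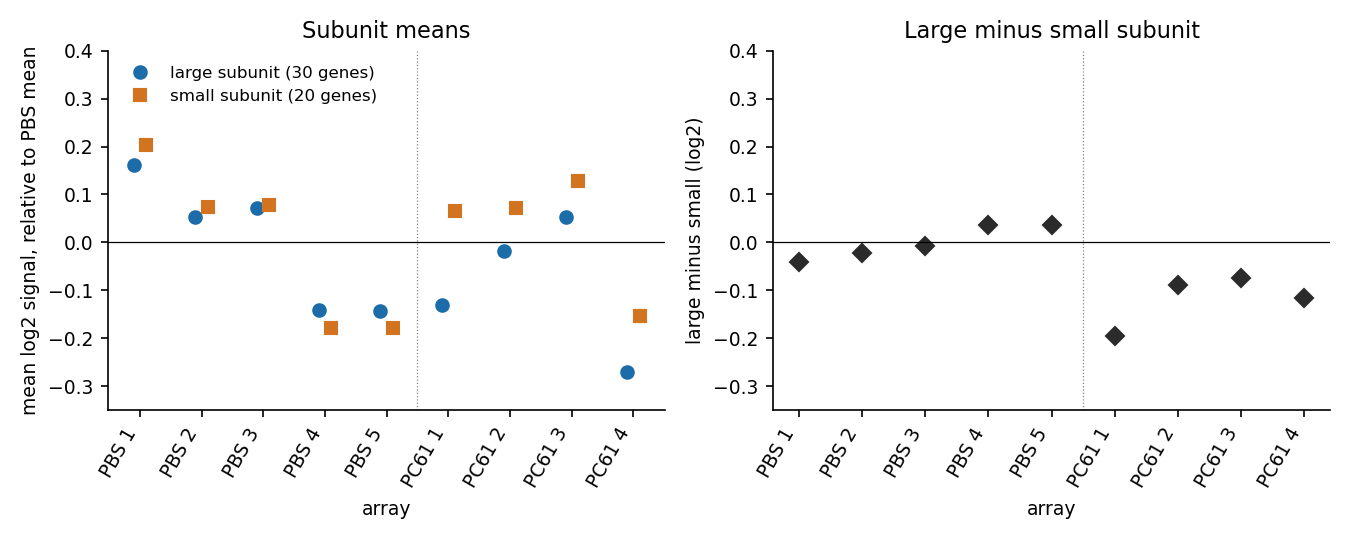
Left, mean log2 signal of 30 large-subunit genes (circles) and 20 small-subunit genes (squares) on each of 9 arrays, relative to the PBS mean. Right, the large minus the small mean, between -0.04 and 0.04 on PBS arrays and between -0.20 and -0.07 on PC61 arrays.

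Probes of the same gene did not always give the same difference. Of 16 genes with several detected probes, 12 had all probes on the same side of 0. Rpl21 had 3 probes at -0.36, -0.30 and -0.42, and Rpl30 had 2 at -0.46 and -0.55. The probe that stood for Rpl31 was at -0.04, and its other probes were at -0.45 and -0.53. For Rps19, a gene mutated in Diamond-Blackfan anaemia in human, the probe used was at -0.05 and the other at -0.63. Rps24 had probes at -0.07, -0.38 and 0.35, the widest range of any gene (0.72). Over all 20190 probes tested singly, 20% were called, and of the 77 probes of the family 2 were, those of Rpl3l and Rpl7a.

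**Figure D5:**
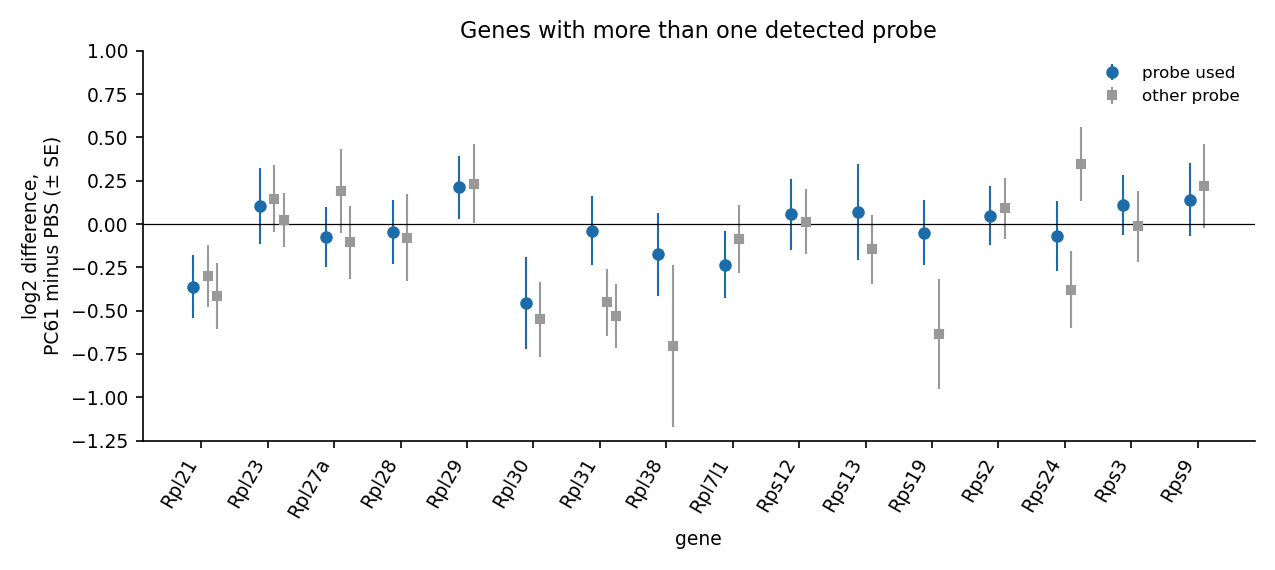
Log2 difference between the PC61 and PBS groups (y axis, bars are SE from limma) for each detected probe of the 16 genes with more than 1 probe (x axis), with the probe used for the gene in blue and the others in grey. Rpl31, Rpl38 and Rps19 have other probes well below the probe used, and Rps24 has probes on both sides of 0.

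Other parts of the translation machinery are set beside the 26.5% of all genes called, and the 41.7% at an unadjusted p under 0.05. Of 30 listed initiation factors 22 were measured, 1 fell and 0 rose (4.55% called, 3 at an unadjusted p under 0.05, median -0.16). The gene that fell was Eif2s2, the beta subunit of the factor that brings the initiator tRNA (-0.97 ± 0.26, SE, limma adjusted p = 0.0230). Eif3a, a scaffold of factor 3, was at -0.57 (adjusted p = 0.0535) and Eif4e, the cap-binding protein, at -0.52 (adjusted p = 0.0855). The Eif4e probe was dim, with a mean log2 signal of 5.74 in PBS and 5.22 in PC61. Of 10 other mRNAs known for a TOP start 8 were measured, and Vim, the intermediate filament vimentin of mesenchymal cells, was the 1 that fell (-0.59, adjusted p = 0.0409). At an unadjusted p under 0.05 there were 3 of these 8, a share close to that of all genes. Pabpc1, the poly(A)-binding protein, was at -0.59 (adjusted p = 0.0679) and Hnrnpa1, a splicing factor, at -0.39 (adjusted p = 0.118). Of 14 listed regulators of TOP mRNAs and of ribosomal genes 11 were measured, and 0 were called in limma, with 2 at an unadjusted p under 0.05. Larp4 was at -0.72, Maf1, a repressor of RNA polymerase III, at -0.39 and Rps6kb2, an S6 kinase, at 0.44. The Rps6kb2 probe was dim, at 5.09 in PBS and 5.53 in PC61, and was detected on 4 of 5 PBS arrays.

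Markers of other cell types were counted in the same samples, where 15.4% of all genes were called higher. Keratinocyte genes rose in 9 of 11 (list mean -1.50 to 0.91 on PBS and 0.83 to 2.69 on PC61 arrays), and fibroblast genes in 6 of 11 (-0.84 to 0.46 and 0.44 to 1.55). Of the pan T cell list 2 of 11 rose (-0.34 to 0.38 and -0.64 to 0.80), a share of 18.2% that is close to that of all genes. They were Bcl11b and Thy1, and Thy1 is also 1 of the 6 fibroblast genes. Of 12 listed B and plasma cell genes 4 were measured and 2 rose, Sdc1 and Xbp1 (-0.31 to 0.26 and 0.63 to 1.20). Mzb1 (limma adjusted p = 0.116) and Irf4 (0.449) were not called. Of the macrophage list 0 of 10 rose in limma, with 0 at an unadjusted p under 0.05 (-0.16 to 0.25 and -0.54 to 0.67). The part of these shifts in the members' values was not tested.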

How the data were processed

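RNA of 9 tumour samples was hybridised as biotinylated cRNA to Illumina BeadChips, per the labels' protocols. The deposited raw table holds 1 linear intensity per probe and array, and a detection p that is treated here as a score because 3 of 45273 probes had values outside 0 to 1; these 3 were left out. No source used here says how the scanner software treated their background. A second deposited table holds quantile-normalized intensities of 17382 probes with the authors' PC61 over PBS ratio, p-value and Benjamini-Hochberg value, per the file headers. Its intensities could be recomputed from the raw table to within 2.74e-09%.

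From the 45270 raw intensities, normexp by detection p with an offset of 16, quantile normalization and log2 were applied (neqc, limma 3.58.1, R 4.3.3). A probe entered the fit if 4 or more arrays detected it at p under 0.05 (20190 probes), and 14906 had a single gene name from the platform annotation. Names were at hand only for probes among the authors' 17382. Whether the 33 ribosomal protein genes not named have probes outside these was not checked. The brightest probe stood for a gene. The groups were fitted with lmFit and eBayes over 10096 genes, 11.3 degrees of freedom in all, with Benjamini-Hochberg adjustment over all of them. Paralog pairs were compared by an exact permutation test. The number of arrays limits the precision.

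Named genes were the called members, further members by smallest p up to 20, the stalk proteins, the paralogs, and those with extreme level, spread or probe disagreement. Members and gene lists were chosen with earlier results of these data known. The 5S rRNA partners were not analysed here. Alternatives were other normalizations, background settings, detection filters, array weights, a robust variance model, mean of probes, leaving out each replicate, and a replicate block. Numbers 1 to 4 are shared by the groups' labels, and whether they pair the samples could not be told. The main fit treats the samples as unpaired.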

Additional observations from a re-analysis of the deposited data

Results flagged for a closer look

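In 60 groups of values (the named genes, the family and subunit means, their difference and the raw share, each in PBS and in PC61) a single array was looked for that stood apart by Dixon's criterion at 95%, which chance meets in about 1 group in 20. It was met in 2 groups, both in PBS. Rps27l was low on PBS replicate 5, at 13.29 with the next array at 13.53 (gap over range 0.821). Rps7, a small-subunit protein, was high on PBS replicate 1, at 14.74 with the next array at 14.07 (gap over range 0.734). Neither gene was called between the groups in the main fit over all 9 arrays. With array weights Rps27l was called, where 44.5% of all genes were, and Rps7 was not.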

How the results depend on the processing

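The alternatives gave 587 values of single genes, subunit medians and the subunit offset. Of these, 559 counted as the same, 8 gained a call, 7 lost one, 10 turned in sign and 3 moved. Single genes counted as the same if they kept direction and side of the threshold. Subunit values counted as the same, whatever their sign, if they moved by less than the spread between replicates. Their turns in sign are not among the 10. With each replicate left out, the large-subunit median ran from -0.10 to 0.0067. The small-subunit median ran from -0.030 to 0.079. Cyclic loess gave 2 members higher and 0 lower, a member median of 0.17, and turned Rpl36al (0.0055), Rps7 (0.072) and Rplp1 (0.16). Scaling to the 75th percentile turned Rplp2 (-0.052) and Rpl9 (-0.056). Array weights called 4497 of all genes (44.5%) and 7 members, 2 higher and 5 lower. The 7 were Rpl3l, Rpl7a, Rpl24, Rpl27, Rpl7l1, Rps10 and Rps27l. Leaving out each replicate gave 753 (without PC61 replicate 3) to 3754 (without PC61 replicate 2) calls over all genes, 1345 without PBS replicate 5, 1443 without PBS 4, 1706 without PBS 2 and 1740 without PC61 1. Members called then numbered 1 to 4, with 1 higher throughout and 0 to 3 lower. Rplp0 ranged from -0.015 (without PBS 2) to 0.20 and Rpl22l1 from -0.19 to 0.064, positive without PC61 4 or PBS 5 (0.042). The pair differences ranged from 1.96 to 2.39 for Rpl3l (adjusted exact p 0.0429 to 0.0857, with fewer splits), -0.34 to 0.24 for Rpl22l1 and -0.52 to -0.32 for Rpl36al.

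Same-numbered samples correlated at -0.24, 0.01, 0.00 and -0.33 in their deviations, and other pairs at -0.47 to 0.48. So few values with so wide a range cannot tell whether the numbers pair the samples. With the replicate block over 8 samples, 0 of all genes and 0 members (0 higher, 0 lower) were called in limma, with 2 members at an unadjusted p under 0.05; Rpl3l was at 2.14 (adjusted p = 0.105), Rpl22l1 at 0.042 and Rpl3l minus Rpl3 at 2.12 (exact sign-flip test, adjusted p = 0.1875, from the smallest p that 4 pairs allow). The same 8 samples without the block, an alternative chosen after seeing the data, gave 1345 calls, 1 member and 0 lower, with Rpl22l1 at 0.042. The cause of these changes was not tested. Small shifts of single members, under the half-widths of their intervals (0.33 to 0.75), were not resolvable with 9 arrays.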
